A study of Mus musculus with 24 samples.

Results

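The comparison described here set the lumbar dorsal root ganglia (DRG) of XX mice against those of XY mice, for genes on the autosomes. DRG hold the cell bodies of sensory neurons with their glia, vessels and resident immune cells, and the lumbar ganglia taken (L4-5) supply mainly the hindlimb. Whole ganglia were used with the nerve roots cut away, so a value belongs to the mixture, and fewer cells of a type cannot be told apart from less RNA per cell. All animals were C57Bl6 mice of 6-8 weeks with no treatment and no transgene. Of the 24 RNA-seq samples of the series, 12 were lumbar: 7 female (XX), of which 5 belonged to batch 2 and 2 to batch 1, and 5 male (XY), all of batch 2. Mouse numbers in the sample titles mark each of the 12 as a different animal. Neither the oestrous stage of the females nor the hour of dissection is given in the sources used here. The members were all genes that lie on an autosome and passed a minimum level (a mean log2 RPKM of at least 0 in 1 or more of the 4 groups of level and sex; RPKM scales the reads of a gene to its length in kilobases and to M reads sequenced, with M for mega). These were 12130 of 12701 genes tested, and 10776 of the 12130 were protein coding.

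The lumbar libraries held 28.8 to 44.6 M reads. They averaged 37.1 ± 4.20 M in females (SD, n = 7) and 42.4 ± 2.60 M in males (SD, n = 5; exact permutation test, two-sided p = 0.0240, adjusted over 3 library measures p = 0.0720), while in batch 2 alone the female mean was 38.7 ± 2.44 M (SD, n = 5; exact p = 0.0556). Mitochondrial transcripts took 33.9% ± 4.88 of the reads in females and 30.3% ± 6.33 in males (exact permutation p = 0.299). The sex labels were borne out by genes of the sex chromosomes: Xist, the RNA that coats the inactive X, had 0 to 2 reads in the lumbar males and 2905 to 13019 in the lumbar females, and the Y gene Ddx3y had 538 to 1096 reads in males and 0 to 2 in females. The 10 neuronal markers that check the tissue (Tubb3, Prph, Avil and others) had a mean log2 RPKM of 6.48 in either sex. Some female libraries stood apart in markers of neighbouring tissue. For skeletal muscle, 3 of 8 listed genes passed the minimum level, and their summed RPKM was 95.4 in female replicate 20, 214 in replicate 22 and 98.4 in replicate 11 of batch 1, but at most 0.391 in the other 4 females and 0.133 to 7.34 in males. Aqp4, a water channel of astrocytes and the only 1 of 9 listed spinal cord genes that passed, was at an RPKM of 21.7 in female replicate 22 and from 1.11 to 4.77 in the other lumbar samples.

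Sex differences in an adult tissue can come from the sex chromosomes or from gonadal steroids. Testosterone acts through the androgen receptor, and steroid 5-alpha-reductases turn it into dihydrotestosterone, a stronger ligand of that receptor; the same enzymes act on progesterone in the making of neuroactive steroids. Aromatase makes oestradiol from androgens, and oestrogens act through Esr1 and Esr2. DRG neurons are known to hold receptors for these hormones, and sex differences in pain are well described.

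A single autosomal gene, Srd5a2, was called between the sexes in lumbar DRG, and the call did not hold in every setting. It was lower in females, and it encodes the type 2 steroid 5-alpha-reductase, the isoform known for the androgen-dependent tissues of the male reproductive tract. The test was a linear model (limma) of the log2 RPKM values of all 24 samples with the 4 group means, batch and mouse, and the threshold for a call was a two-sided p of 0.05 or less after Benjamini-Hochberg adjustment over all genes tested. That 1 call is 0.00824% of the 12130 autosomal genes. With the samples of batch 2 alone the count was again 1, or 0.00824%, and the gene was again Srd5a2. When the model held only the lumbar samples, 0 genes were called (limma adjusted p of Srd5a2 0.303, and 0.400 with those of batch 2 alone). The call of Srd5a2 was also lost with a stricter filter on low values (adjusted p = 0.134) and without male replicate 12 (0.0703), 13 (0.138) or 14 (0.125). Quantile normalization lost it too, as did log2 of RPKM + 1, where the difference was −1.058. The call was kept when any single female was left out. Those include replicate 20, 22 and 11 of batch 1, the libraries high in muscle markers (limma adjusted p = 0.0449, 0.0340 and 0.0157). Each of these libraries had no read of Srd5a2 and was left out alone, so the part of the muscle signal was not tested. Over all chromosomes 8 genes were called, 7 of them on the X or Y.

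Srd5a2 (ENSMUSG00000038541) is a protein coding gene on the minus strand of mm9 chromosome 17, from 74367046 to 74397256. Because it carried the one call, the 250 bases before its transcription start are shown, taken from RefSeq (GRCm38.p6, minus strand, chr17:74047861-74048110, written 5′ to 3′), with the letters TATAA in capitals.
Srd5a2 promoter: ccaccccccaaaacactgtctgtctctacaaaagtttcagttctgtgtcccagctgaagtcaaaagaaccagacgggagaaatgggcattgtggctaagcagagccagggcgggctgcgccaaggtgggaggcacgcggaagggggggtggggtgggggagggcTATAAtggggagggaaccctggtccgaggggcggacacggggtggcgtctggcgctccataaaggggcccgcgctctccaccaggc
In this stretch and the 50 bases after the start, TATAA (or TTATA on the other strand) was found 1 time, and 22.8% of 32851 RefSeq mouse promoters of the same length hold it. The half-site letters AGAACA (or TGTTCT), as bound by the androgen receptor, were found 0 times (16.1% of promoters hold them), and those of an oestrogen response element half-site, GGTCA (or TGACC), 0 times (35.2%). These matches describe the letters in the window only.

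The Srd5a2 signal in lumbar DRG was low in either sex. Whole reads could be recovered from the deposited values, and male replicates 11 to 15 had 4, 11, 19, 31 and 6 reads of Srd5a2. The 5 females of batch 2 (replicates 19 to 23) had 0 reads each. The 2 females of batch 1 had 0 and 13 reads. Thus every male had reads and no batch 2 female did, but one batch 1 female, with 0.348 reads per M, lay inside the male range of 0.104 to 0.748 reads per M. The male mean was 0.334 ± 0.265 reads per M (SD, n = 5). A library with no read allows up to 3 reads, or 0.0736 to 0.0862 reads per M in the batch 2 females. The male mean stood 3.88-fold or more above these limits. That ratio covers the counting error of the females only and not the spread of the males, the lowest of which was at 0.104 reads per M. It leaves out batch 1, where 1 female was at 0.348 reads per M.

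On the deposited scale, from which the authors had subtracted a batch difference, Srd5a2 was at −4.58 ± 1.31 in females (log2 RPKM, SD, n = 7) and −0.03 ± 1.17 in males (n = 5). The blank cells of 6 of the 7 females were set at 0.5 reads, so the fitted log2 difference of −4.57 ± 0.84 (SE; limma adjusted p = 0.0222) depends on that fill and is no exact size. The batch difference for this gene was 3.39 on the log2 scale, and it lowered the batch 1 female with 13 reads below every male. Batch 2 alone gave −4.32 ± 0.80 (adjusted p = 0.04997). Run on the recovered reads with batch in the model, an alternative chosen after seeing the data, limma voom gave −4.79 ± 0.99 and did not call the gene (adjusted p = 0.0613), and with batch 2 alone it gave −4.40 ± 1.09 (adjusted p = 0.595).

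The reads per M of the 3 reductase genes are plotted sample by sample. Srd5a1, the isoform of brain and many other tissues, had 281 to 776 reads in males, 197 to 346 in batch 2 females and 266 and 549 in batch 1 females. Its log2 difference was −0.72 ± 0.32 and it was not called (limma unadjusted p = 0.0315, adjusted p = 0.649). Srd5a3, which serves the synthesis of dolichol for protein glycosylation, had 168 to 700 reads in males and 153 to 739 in females, with a difference of 0.42 ± 0.42 (adjusted p = 0.854). Both were far more abundant in reads than Srd5a2, and the sexes overlapped for both.

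**Figure D1:**
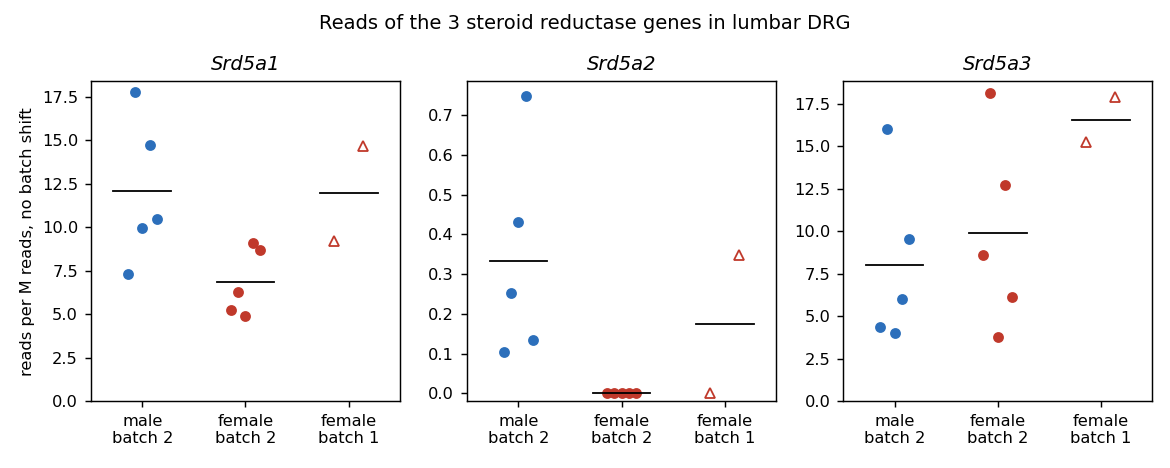
Reads per M reads (y axis, no batch shift) of Srd5a1, Srd5a2 and Srd5a3 in the 12 lumbar samples, each point 1 mouse; filled circles are batch 2, open triangles batch 1, and bars group means. All 5 males have Srd5a2 reads (0.104 to 0.748 per M), the 5 batch 2 females have 0, and 1 of the 2 batch 1 females lies within the male range.

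In the sacral ganglia of the same series Srd5a2 had 239, 184, 404, 273 and 212 reads in males. The sacral females had 1, 6, 0 and 23 reads in batch 2 and 33, 29 and 68 in batch 1. There every male was above every female, and the log2 difference was −6.17 ± 0.87 (limma adjusted p = 5.68e-04). The interaction of level and sex was 1.60 ± 1.16 (lumbar minus sacral, unadjusted p = 0.181), so nothing about the sex difference of Srd5a2 can be called particular to lumbar ganglia.

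Among the enzymes of sex steroid metabolism no other gene was called. Of 27 autosomal genes listed for this pathway, 14 passed the minimum level, and 0 had a limma unadjusted p of 0.05 or less toward females and 2 toward males (Srd5a2 and Srd5a1), against 3.45% and 3.82% of all autosomal genes. The median difference of the 14, Srd5a2 included, was −0.19 (−0.12 in batch 2 alone), beside 0.01 over all autosomal genes. Star, which brings cholesterol into mitochondria for the first step of steroid synthesis, differed by 0.88 ± 0.61, and Hsd17b12, a hydroxysteroid dehydrogenase, by −0.44 ± 0.28. Both had unadjusted p above 0.05.

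Receptors for the sex hormones did not separate XX from XY ganglia. Esr1, the oestrogen receptor alpha gene, had 284 to 660 reads in females and 199 to 735 in males, and its log2 difference was 0.11 ± 0.35 (limma adjusted p = 0.965). Pgr, the progesterone receptor, differed by −0.09 ± 0.65, with 18 to 477 reads in males and 70 to 173 in females. Prlr, the prolactin receptor, differed by 0.26 ± 0.38. Esr2 was below the minimum level and was not tested: males had 34, 0, 137, 2 and 0 reads, batch 2 females 0, 21, 0, 0 and 41, and batch 1 females 4 and 13. Among 21 tested receptor and coregulator genes the median difference was 0.12, and 1 gene, Greb1, had an unadjusted p of 0.05 or less (1.42 ± 0.51, unadjusted p = 0.0103, adjusted p = 0.539), beside 3.45% of all autosomal genes in that direction. Greb1 is known as an oestrogen-induced gene; it had 48 to 613 reads in males and 275 to 851 in females, and the groups overlapped.

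Across the autosomes the 2 sexes were close. The median log2 difference was 0.01 and the median absolute difference 0.22, less than the median standard error of 0.30, and 51.2% of the genes were higher in females. An absolute difference over 1.10 was reached by the top 5% of genes, mostly genes of low level, as the plot of difference against level shows. Among the 6494 genes with a mean log2 RPKM of at least 2 in 1 of the lumbar groups, 92 differed by 2-fold or more and 5 by 4-fold or more. An unadjusted p of 0.05 or less was found for 418 genes higher in females (3.45%) and 463 lower (3.82%), in sum 881. In batch 2 alone there were 674, with 278 higher (2.29%) and 396 lower (3.26%), and 587 genes were shared with the same direction.

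**Figure D2:**
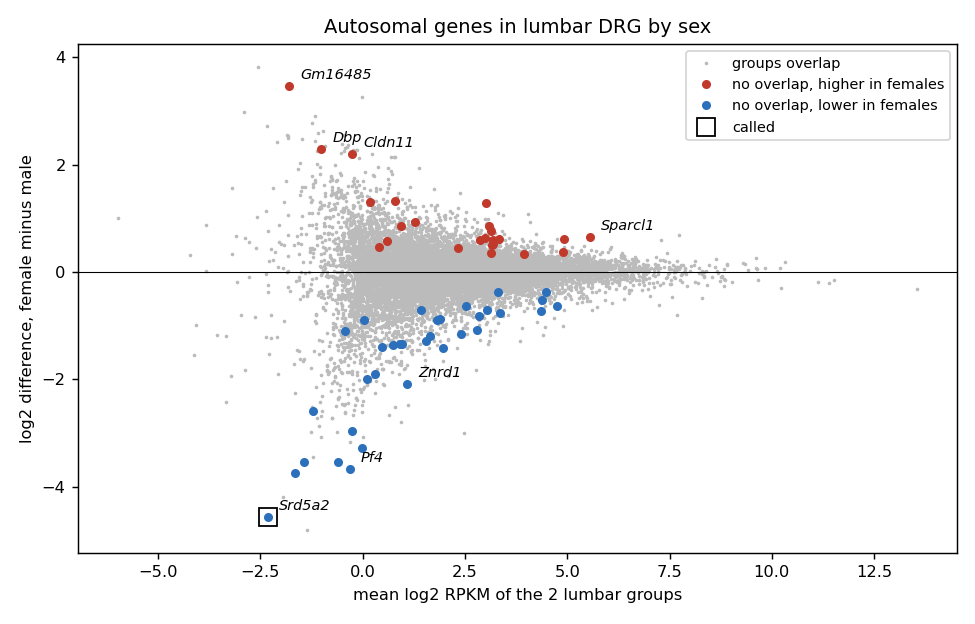
Log2 difference (female minus male, y axis) against the mean log2 RPKM of the lumbar groups (x axis) for 12130 autosomal genes, with genes whose 12 samples do not overlap in red or blue and the called gene in a square. Large differences sit at low levels, and Srd5a2, at −4.57, is the called gene.

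Non-overlap of the 12 samples was found for 24 genes higher in females (0.198%) and 34 lower (0.28%). The batch 1 females bear on this only in part. Batch 1 held females alone, and removing the batch difference set the mean of its female samples, over both levels, on that of the batch 2 females, so the comparison within batch 2 is the direct one between the sexes. Within batch 2 the 5 females and 5 males did not overlap for 43 genes higher (0.354%) and 55 lower (0.453%), and the 58 genes above are all among these 98. In recovered reads per M without any batch shift, both batch 1 females lay beyond the male range on the female side for 38 of the 98, 1 of them for 14, and neither for 46. The median absolute batch difference was 0.75 on the log2 scale, larger than most sex differences.

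To show the clearest abundant genes, those with a mean log2 RPKM of at least 2 in 1 lumbar group, no overlap among the 12 samples and an unadjusted p of 0.05 or less in both fits were taken. These were 27 genes, 12 higher and 15 lower in females, and 15 of the 16 that hold the 8 largest differences in each direction are given. The selection used these very values, so they are descriptions, and none of the 15 was called (limma adjusted p from 0.221 to 0.521). Beyond the male range in reads per M without the shift lay both batch 1 females for 12 of the 27, 1 for 1 and neither for 14.

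Among the genes higher in females, 2810008M24Rik (ENSMUSG00000071180, mm9 chromosome 13 from 108836618 to 108839340) had 400, 465, 388, 315 and 287 reads in males. Batch 2 females had 659, 630, 822, 531 and 574 reads and batch 1 females 638 and 1082. Every female was above every male, also per M reads, and the log2 difference was 0.86 ± 0.20 (limma adjusted p = 0.221). In sacral ganglia the same gene differed by −0.26 ± 0.21, and the interaction had an unadjusted p of 4.33e-04 that did not pass adjustment (adjusted p = 0.979). Lancl2 (ENSMUSG00000062190, chromosome 6 from 57652595 to 57689432), a LanC-like protein gene, had 67.4 to 77.1 reads per M in males, 89.1 to 145 in batch 2 females, and 115 and 118 in batch 1. It overlaps Vopp1 on the other strand, and without a stranded count their reads cannot be told apart.

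Sparcl1 (ENSMUSG00000029309, chromosome 5 from 104508130 to 104543107), a secreted matrix protein made by glia and endothelium, had 87.3, 116, 114, 106 and 99.7 reads per M in males. In females it had 126, 122, 162, 338 and 157 in batch 2, with replicate 22 highest, and 191 in each of batch 1. It overlaps the lincRNA Gm16990 on the other strand. The difference was 0.64 ± 0.19 (limma adjusted p = 0.404). Replicate 22 is also the library with the most Aqp4, skeletal muscle and fibroblast marker signal, and without it the difference was 0.43 ± 0.13 (adjusted p = 0.468). For Sparcl1 and the 2 genes before it, the batch 1 females stood with the other females before any shift.

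Vegfa, the vascular endothelial growth factor (ENSMUSG00000023951, chromosome 17 from 46153942 to 46169326), had 38.9 to 45.1 reads per M in males and 48.7 to 76.9 in batch 2 females, whereas the batch 1 females, at 26.5 and 30.0, were below the males before the shift. Its difference was 0.63 ± 0.15 in lumbar and 0.61 ± 0.16 in sacral ganglia. Cpox and Wdr37 had the same order, with both batch 1 females below every male in reads per M before the shift. Cpox, an enzyme of haem synthesis, differed by 0.59 ± 0.19, and Wdr37, a WD repeat protein gene, by 0.51 ± 0.14. Gclc, the catalytic subunit of glutamate-cysteine ligase that begins glutathione synthesis, differed by 0.62 ± 0.18, and its batch 1 values of 35.3 and 42.2 reads per M stood at the upper edge of the male range (24.9 to 35.4) and above it.

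**Figure D3:**
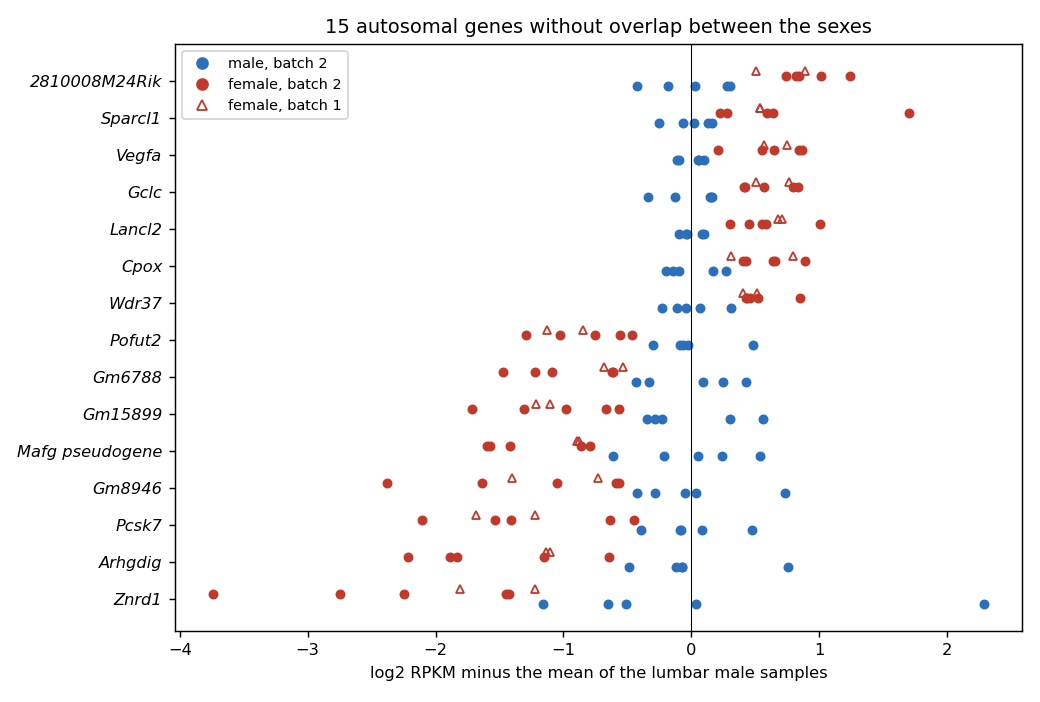
Log2 RPKM of each lumbar sample minus the mean of the lumbar males (x axis) for the 15 genes described, 7 higher and 8 lower in females; circles are batch 2 and triangles batch 1, after the authors' batch subtraction. The sexes do not overlap for any of the 15, by which they were chosen, and male replicate 14 of Znrd1 stands far above the other males.

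Of the genes lower in females, Znrd1 (ENSMUSG00000036315, chromosome 17 from 37091303 to 37095504), a subunit of RNA polymerase I, had the largest difference, −2.09 ± 0.50 (limma adjusted p = 0.260). Its reads were 27, 45, 28, 203 and 20 in males and 8, 15, 6, 13 and 3 in batch 2 females, but 106 and 206 in batch 1 females. Male replicate 14 stood apart from the other males, and both batch 1 females were above at least 4 of the 5 males in reads per M before the shift of 3.68 on the log2 scale. Arhgdig, a GDP-dissociation inhibitor gene of brain, differed by −1.42 ± 0.39, with 8.43 to 19.9 reads per M in males, 2.53 to 7.55 in batch 2 females, and 16.5 and 16.9 in batch 1. Pcsk7, a proprotein convertase, differed by −1.29 ± 0.45 and Pofut2, a protein O-fucosyltransferase, by −0.87 ± 0.25. For none of these 4 did a batch 1 female lie below the male range in reads per M.

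The other 4 genes lower in females were 3 annotated pseudogenes and Gm6788, a short gene annotated as protein coding. Gm8946, a pseudogene that lies within the span of Cyp2b13 on the same strand, differed by −1.19 ± 0.41 and Gm6788 by −0.89 ± 0.27, and both batch 1 females were below the males for each. Gm15899, a pseudogene inside Cbfa2t3, differed by −1.08 ± 0.29. The pseudogene annotated under the name Mafg (ENSMUSG00000053906, 501 bases within the Mafg gene on chromosome 11) differed by −1.15 ± 0.32. Each of the 3 pseudogenes lies within another gene on the same strand, and reads can be split between them, so these 3 values are uncertain. Pcsk7 also overlaps Rnf214 by 326 bases and Tagln, a smooth muscle gene, by 65 bases, both on the other strand. Tagln differed by −1.28 ± 0.60 (limma unadjusted p = 0.0425) and was not called.

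The 11 genes of the 27 beyond these 16 differed by less than the 8 of their direction. Among them Prune, a phosphodiesterase gene chosen after its values were seen, had 20.9 to 34.9 reads per M in males and 13.8 to 16.7 in batch 2 females, with 25.8 and 23.9 in batch 1, and differed by −0.82 ± 0.18 (limma adjusted p = 0.163). Below the level minimum, the gene next to a call was Gm16485 (ENSMUSG00000078117, chromosome 9 from 8971791 to 8975773), which begins beyond the end of Pgr on the same strand. It had 13, 68, 14, 72 and 2 reads in males, 317, 124, 254, 156 and 132 in batch 2 females and 76 and 131 in batch 1 females. Every female had more reads than every male, and the difference was 3.47 ± 0.74 (adjusted p = 0.126). Pgr itself showed no such difference, as given above.

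Some genes named in the study's account of sex were tested in the lumbar ganglia alone. That list was drawn by the study from these samples, so its direction is not independent evidence. Of 9 tested genes 2 had an unadjusted p of 0.05 or less toward females (Gm16485 and Cldn1) and 1 toward males (Tac1), beside 3.45% and 3.82% of all autosomal genes. In batch 2 alone these were 2 and 0, beside 2.29% and 3.26%. Cldn1, the tight junction protein of the perineurium, had 484 to 1320 reads in males and 1043 to 2685 in females, a difference of 1.07 ± 0.28 (limma adjusted p = 0.319). Tac1, the substance P precursor, had 191 to 335 reads per M in males and 187 to 247 in batch 2 females, and differed by −0.27 ± 0.13 (adjusted p = 0.662). The batch 1 females were at 69.0 and 77.3 reads per M before the shift. In batch 2 alone the difference was −0.24 ± 0.14 (limma unadjusted p = 0.104). In sacral ganglia Tac1 differed by −0.86 ± 0.14, and the interaction had an unadjusted p of 0.00300 (adjusted p = 0.979).

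Neuropeptide precursors carry the signals that sensory neurons release, and 16 of the 22 listed were tested. There were 13 with a difference below 0 and 3 above, with a median of −0.20, beside 0.01 over all autosomal genes, and 0 were called. Sst, the somatostatin precursor of itch neurons, was 1.07 ± 0.37 higher in females (limma unadjusted p = 0.00768, adjusted p = 0.514), with 217 to 616 reads in males and 305 to 1826 in females. The 1826 reads were in female replicate 22, the library with the most Aqp4 signal. The batch 2 females had a median of 484 reads, within the male range. Uts2d, a urotensin precursor, differed by −2.52 ± 1.00 (unadjusted p = 0.0181). Calca, the CGRP precursor and among the most abundant of the list, had 448 to 525 reads per M in males and 321 to 520 in batch 2 females, a difference of −0.24 ± 0.13 (unadjusted p = 0.0742), and Penk, the enkephalin precursor, differed by −0.86 ± 0.48 (unadjusted p = 0.0844).

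Of the receptors and channels of nociceptors none was called, and the set medians were close to that of all autosomal genes, with members on both sides of 0. Oprm1, the mu opioid receptor, had 67.4 to 101 reads per M in males and 62.1 to 107 in females of both batches, and a difference of −0.03 ± 0.19 (limma adjusted p = 0.980). All 4 opioid receptor genes were tested and 0 had an unadjusted p of 0.05 or less, Oprk1 with the largest difference at 0.68 ± 0.81. Trpv1, the heat and capsaicin channel, differed by −0.14 ± 0.24. Of 12 TRP, 10 sodium and 16 calcium channel genes in the sets the study curated, 0 had an unadjusted p of 0.05 or less, and the medians of these sets were 0.02, 0.01 and 0.05. Over all autosomal genes, 3.45% had such a p toward females and 3.82% toward males. Counts of 0 in groups this small, the opioid receptors included, are near those shares. Single genes ran from −0.40 to 0.86 among the TRP channels and from −0.55 to 0.63 among the calcium channels.

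In the 10 curated sets 238 genes of 298 were tested, 0 were called, and set medians ran from 0.01 to 0.16. An unadjusted p of 0.05 or less was found for 17 genes toward females (7.14%, beside 3.45% of all autosomal genes) and 6 toward males (2.52%, beside 3.82%). In batch 2 alone these were 8 (3.36%, beside 2.29%) and 5 (2.10%, beside 3.26%). Among 51 potassium channel genes these were 4 and 0, and 1 and 0 in batch 2 alone, with Kcnh7 (0.46 ± 0.18) and Kcna2, a Kv1 channel of the juxtaparanode (0.31 ± 0.13), among the 4. In 39 ligand gated channel genes there were 2 each, also in batch 2 alone, with the GABA-A receptor subunit Gabrg1 (0.82 ± 0.34) toward females and the serotonin receptor subunit Htr3b (−0.72 ± 0.33) toward males. Of 45 G-protein coupled receptor genes 3 were on either side (1 toward females and 2 toward males in batch 2 alone), with Sstr2, a somatostatin receptor, at 1.20 ± 0.41 and the lysophosphatidic acid receptor Lpar5 at −1.48 ± 0.55. The means of Sst and Sstr2 were both higher in females, but the groups overlapped for each and neither was called.

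Transcription factors were the curated set with the most such genes, 7 toward females and 1 toward males of 47 tested (median 0.15), beside 3.45% and 3.82% of all autosomal genes. In batch 2 alone these were 4 and 1, beside 2.29% and 3.26%. Insm2, a zinc finger gene related to neuroendocrine Insm1, had 444 to 1131 reads in males, 862 to 1688 in batch 2 females and 247 and 274 in batch 1 females, a difference of 0.98 ± 0.27 (limma adjusted p = 0.365). Esrrg, an orphan nuclear receptor, differed by 0.64 ± 0.20, and Elk3, an ETS factor, by 0.85 ± 0.30. Ppargc1b, a coactivator of mitochondrial genes, differed by −1.02 ± 0.48. Of 8 neurotrophin and GDNF family receptors 0 had an unadjusted p of 0.05 or less, beside 3.45% and 3.82% of all autosomal genes. The neurotrophin gene Bdnf was at 0.01 ± 0.28.

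The circadian clock list had the largest share of such genes among the lists used here with 10 or more tested genes. The clock runs on the activators Clock and Arntl, which drive the Per and Cry repressors and the output genes Dbp, Tef and Hlf, while Nr1d1 and Nr1d2 repress Arntl. Of 15 tested genes 6 had an unadjusted p of 0.05 or less toward females (Dbp, Nr1d1, Hlf, Per3, Rora and Nr1d2) and 1 toward males (Arntl), beside 3.45% and 3.82% of all autosomal genes, and the median difference was 0.55. In batch 2 alone these were 6 and 0, beside 2.29% and 3.26%, and the median was 0.69. None was called (limma adjusted p of Dbp 0.319).

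Dbp had 2, 26, 41, 44 and 50 reads in males, 69, 150, 80, 127 and 91 in batch 2 females and 96 and 175 in batch 1 females. Every female was above every male, and the log2 difference was 2.29 ± 0.60. Nr1d1 had 422, 493, 768, 1472 and 1437 reads in males and 991 to 2469 in females, a difference of 0.99 ± 0.33, and males 14 and 15 lay within the female range. Arntl, known to peak at about the opposite hour to Dbp, had 14 to 219 reads in males and 0 to 77 in females, a difference of −3.08 ± 1.26. Clock, whose mRNA cycles little, had 3025 to 5150 reads in males and 2979 to 5137 in females. Time of dissection is not given, so sex and hour of sampling cannot be told apart for these genes.

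**Figure D4:**
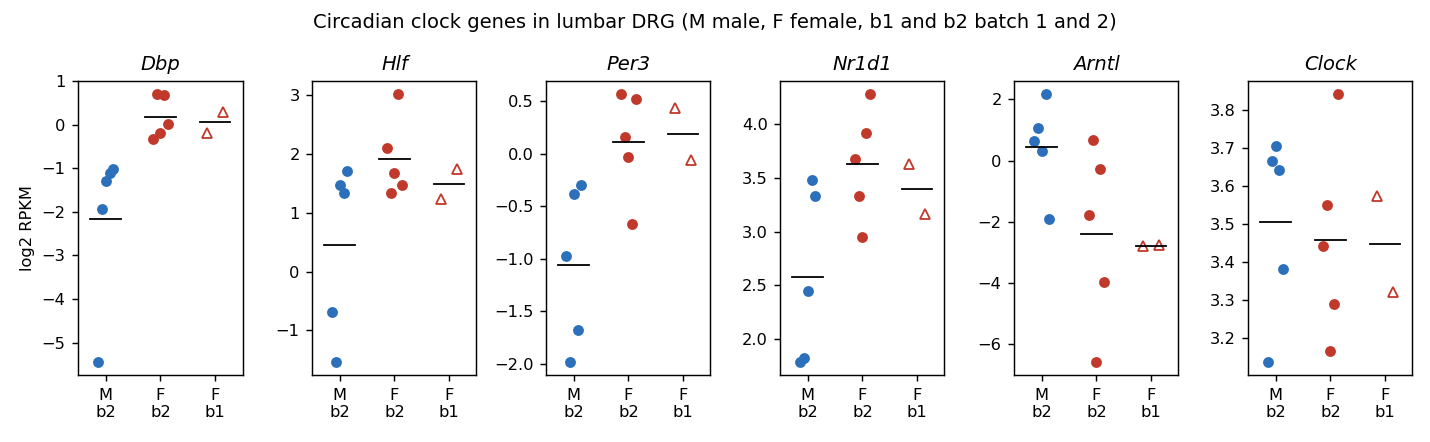
Log2 RPKM (y axis, scale differs by panel) of 6 clock genes in the 12 lumbar samples, each point 1 mouse and bars the group means; the 6 were chosen after their values were seen. Dbp, Hlf, Per3 and Nr1d1 are higher in females on average, Arntl is lower, and Clock is alike in range.

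Lists of cell type markers asked whether the mixture of cells differed. Of 19 such lists, none passed an exact permutation test of the mean log2 RPKM over samples (smallest unadjusted p = 0.0619 for endothelial cells, smallest adjusted p = 0.516), and this design allows a p as small as 0.00126. Sensory neuron markers averaged 6.48 ± 0.14 in females and 6.48 ± 0.16 in males, and satellite glia markers 4.09 ± 0.12 and 4.10 ± 0.09. On the scale of summed RPKM, which the most abundant genes of a list dominate, satellite glia markers were 291 ± 38.2 in females and 345 ± 39.9 in males (exact permutation p = 0.0455) and endothelial markers 15.9 ± 1.72 and 11.4 ± 4.41 (exact p = 0.0328), and neither passed adjustment over the 19 lists (adjusted p = 0.269 for both). In batch 2 alone the p of these lists on that scale was 0.0794 and 0.0635, while fibroblast markers, at 331 ± 68.4 in females and 258 ± 30.7 in males, had an exact p of 0.0397, and pericyte and smooth muscle markers, at 98.6 ± 9.55 and 113 ± 7.03, an exact p of 0.0476 (adjusted p = 0.377 for each of the 4). The myelinating Schwann cell list was 4.98 ± 0.35 in females and 5.44 ± 0.43 in males (exact permutation p = 0.0644). In batch 2 alone its female mean was 5.07 ± 0.36 (exact p = 0.183). On summed RPKM its exact p was 0.380 over the 12 samples and 0.540 in batch 2. All 10 genes of the list, among them Prx (−0.56 ± 0.34) and Mbp (−0.31 ± 0.22), had a difference below 0. Their median was −0.51 (−0.38 in batch 2 alone), and 0 had an unadjusted p of 0.05 or less, beside 3.82% of all autosomal genes toward males. Endothelial markers ran the other way, with all 5 above 0 and Cdh5, the vascular cadherin, at 0.67 ± 0.29. In batch 2 alone the endothelial list had an exact p of 0.183 on mean log2 RPKM.

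No gene of the blood cell lists was called, and most erythroid and neutrophil genes had a difference below 0 (4 of 5 and 5 of 7). Of 5 erythroid genes, the 4 globin genes had an unadjusted p of 0.05 or less toward males, beside 3.82% of all autosomal genes. Hba-a1 had 336 to 968 reads in males, 219 to 726 in batch 2 females and 252 and 391 in batch 1 females, a difference of −1.18 ± 0.41 (limma adjusted p = 0.514). The erythroid median was −1.02, but in batch 2 alone it was −0.57 and 1 gene passed that p (3.26% of all autosomal genes). The mean log2 RPKM of the list ran from 2.13 to 4.51 in females and from 3.13 to 4.88 in males (exact permutation p = 0.109). Hba-a1 and Hba-a2, like Hbb-b1 and Hbb-b2, are near-identical copies whose reads can be split. Of 7 neutrophil genes 3 had such a p, all toward males and beside the same 3.82%: Retnlg (−3.27 ± 1.15), Lcn2 (−1.49 ± 0.60) and S100a9 (−1.34 ± 0.63). The list median was −1.34. In batch 2 alone 1 gene had such a p and the median was −1.23. The highest of the neutrophil genes was at 0.35 and Ighm, an immunoglobulin gene of the lymphocyte list, at 0.36. The mean log2 RPKM of the neutrophil list ran from −0.46 to 1.94 in females and from 0.15 to 3.83 in males (exact permutation p = 0.158). Male replicate 11, which also had the highest mitochondrial share of the males (41.5%), had the highest mean of the 12 samples for both lists; its part in these differences was not tested.

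Retnlg had 245, 19, 55, 42 and 24 reads in males, with replicate 11 far above the rest, and 14, 0, 17, 6 and 8 in batch 2 females. The batch 1 females had 15 and 9 reads, and the first of these, at 0.521 reads per M before the shift, lay above the lowest male (0.435). Pf4, the platelet factor made in megakaryocytes and chosen after its values were seen, had 24, 11, 16, 10 and 50 reads in males and 5, 1, 0, 1 and 2 in batch 2 females, but 30 and 16 in batch 1 females, a difference of −3.67 ± 0.84 (limma adjusted p = 0.213). Whether blood left in the ganglia has a part in these differences was not tested. Of 10 macrophage genes tested, 6 had a difference below 0, with a median of −0.24 (−0.03 in batch 2 alone), and 0 had an unadjusted p of 0.05 or less (1, toward females, in batch 2 alone). Over all autosomal genes such a p was found for 3.45% toward females and 3.82% toward males, and for 2.29% toward females in batch 2 alone. Ly86 differed by −0.34 ± 0.19.

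**Figure D5:**
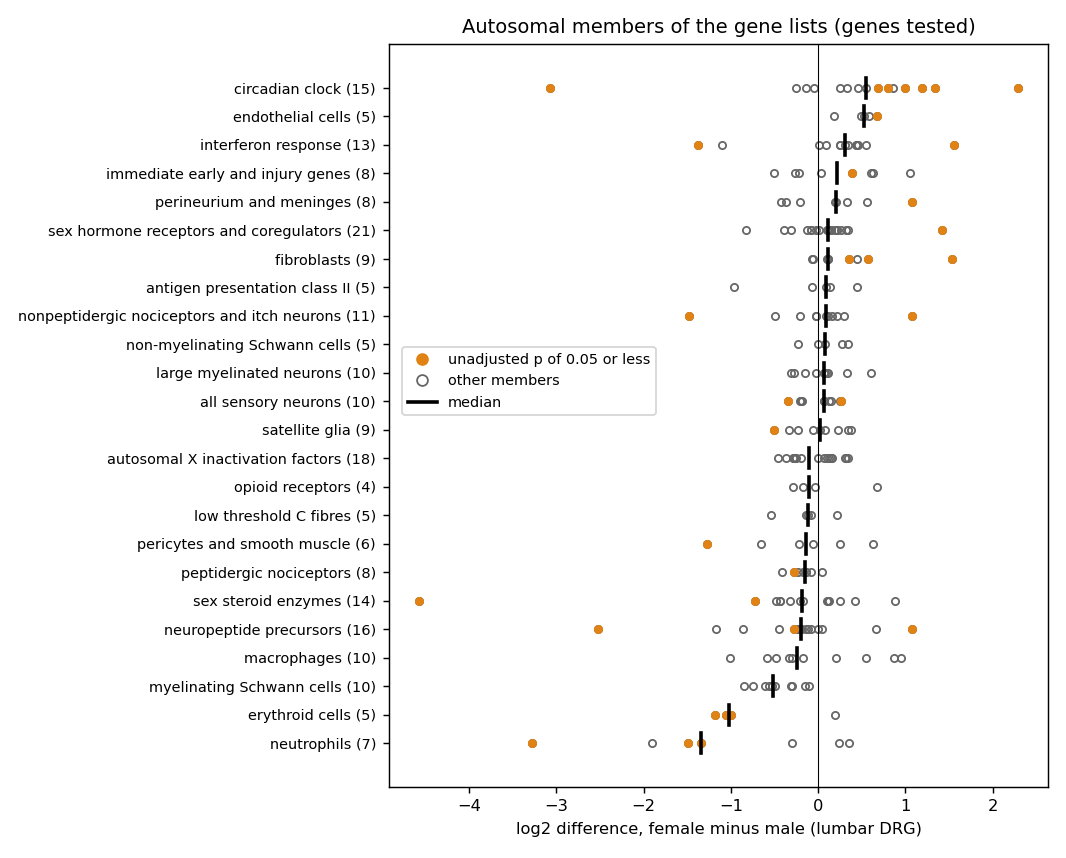
Log2 difference (female minus male, x axis) of each tested autosomal gene by list, for lists with 4 or more tested genes and without the curated sets, with the number tested in brackets, orange for an unadjusted p of 0.05 or less and a bar for the median. Neutrophil, erythroid and myelinating Schwann cell lists have medians below −0.5 and the circadian clock and endothelial lists medians above 0.5. In batch 2 alone, which is not plotted, the Schwann cell median was −0.38 and the endothelial median 0.48.

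In the lists of other supporting cells no gene was called. Among 9 fibroblast genes 3 had an unadjusted p of 0.05 or less toward females, beside 3.45% of all autosomal genes: Fbln1 (1.53 ± 0.64), Lum (0.57 ± 0.25) and Dcn (0.36 ± 0.17), with a list median of 0.11. Apoe, the lipid carrier of satellite glia, had 85.6 to 99.7 reads per M in males and 36.3 to 89.4 in batch 2 females, and differed by −0.51 ± 0.17 (limma adjusted p = 0.469). In batch 1 the values were 304 and 286 reads per M before a shift of 2.22 on the log2 scale. Interferon response genes had 1 gene on either side, Ifit3 (1.55 ± 0.59) and Rsad2 (−1.37 ± 0.67), beside 3.45% and 3.82% of all autosomal genes, and a median of 0.31 over 13. With batch 2 alone the counts were 1 toward females and 0 toward males. Of 18 autosomal factors that help silence the X chromosome, 0 had an unadjusted p of 0.05 or less, beside 3.45% and 3.82% of all autosomal genes. Their median was −0.10, with Ciz1 the nearest at −0.46 ± 0.25 (limma unadjusted p = 0.0736).

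Finally, the lumbar differences were set against the sacral ones by the interaction of level and sex. No autosomal gene was called by limma (0 of 12130, smallest adjusted p = 0.979), and in batch 2 alone the count called was also 0. An unadjusted p of 0.05 or less was found for 545, fewer than the 1 in 20 that this threshold lets pass where no gene differs. In sacral ganglia 5 autosomal genes were called between the sexes, Srd5a2 and Tac1 among them. No lumbar sex difference given here can thus be called particular to the lumbar level.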

How the data were processed

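Total RNA of DRG was amplified (Ovation RNA-Seq System v2), and Nextera XT libraries were sequenced on a HiSeq2500. The authors' processing notes list Subread (1.18, 1.20.6), featureCounts, edgeR 3.12.1 and limma 3.26.9 in R (3.2.1, 3.2.2), with mm9. The authors' methods give reads counted per Ensembl gene, with no word on strand. The log2 RPKM values deposited by the authors came from voom and TMM scaling, less a batch difference estimated in a model holding the groups. Pseudogene, overlap and coordinate annotation came from GENCODE M1 on mm9.

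Blanks were read as 0 reads and set at 0.5 reads on the scale of the gene's deposited values in that batch; the batch shift was included because the deposited values carry it (without it the Srd5a2 difference was −5.937). Whole reads were recovered for 99.7% of 26539 genes from the steps of the values; in 13683 genes checked, 100% of batch shifts agreed within 1e-06. Reads carry no molecular identifiers, so bounds cover counting error only. Models used R 4.3.3 with statmod 1.5.0 and limma 3.58.1 on 24 samples (4 group means, batch, mouse as a random block, intensity trend), for genes with a mean log2 RPKM of at least 0 in 1 or more groups, with Benjamini-Hochberg adjustment over all 12701 genes. Scripts were tested on simulated data. Library and list levels used exact permutation tests (792 assignments; 252 in batch 2). Samples are separate mice by their titles, and p-values measure the spread between them. Mouse numbers pair lumbar with sacral samples of an animal; the estimated correlation within a mouse was −0.02.

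Named genes were those called, the 8 largest non-overlapping differences in each direction as described, the smallest p of each list, and 12 genes fixed by name; 1 of the non-overlapping genes is not reported here. The members, lists and rule were chosen with earlier results of these data known. Alternatives were planned (29 in all with those added for blanks and for voom on reads), and their effects are given in the closing section. Protein sequences were not used here.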

Additional observations from a re-analysis of the deposited data

Results flagged for a closer look

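In 98 groups of 4 to 10 lumbar values (genes, marker lists and library measures) the most extreme sample was checked against the rest by Dixon's ratio, the gap to the next sample over the range. Chance flags about 1 in 20 groups, and 6 were found. For Srd5a2 the lowest female, replicate 11 of batch 1, was at a log2 RPKM of −7.31 against −4.43 for the next (ratio 0.667). That sample is blank for the gene, and its value is the fill of 0.5 reads less the batch difference. Sparcl1 was highest in female replicate 22 (6.93 against 5.87, ratio 0.722), and Wdr37 in female replicate 23 (3.78 against 3.44, ratio 0.746). The mean of the perineurium and meninges markers was lowest in male replicate 12 (1.01 against 2.32, ratio 0.846). The mean of the adipocyte markers was lowest in female replicate 23 (−2.21 against −0.14, ratio 0.641). The mitochondrial share was highest in male replicate 11 (41.5% against 28.7%, ratio 0.824), the sample that also had the most Retnlg reads and the fewest Dbp reads of the males.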

How the results depend on the processing

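The count of autosomal genes called was 1 without the replicate block (pairing by mouse left out), 0 in the lumbar samples alone, 0 in lumbar batch 2 samples alone (for both counts), 2 with no filter on low values (Adcy4 added), 0 with a stricter filter, and 0 by voom on the recovered reads in either set, and it ran from 0 to 2 when each replicate was left out (0 without male 13, 2 without female 21, where Ecm2 was added). For Srd5a2 the call was lost at −4.547 (lumbar samples alone, adjusted p = 0.303), −4.318 (lumbar batch 2 alone, 0.400), −4.576 (stricter filter, 0.134), −1.058 (log2 of RPKM + 1, 0.334), −3.948 (quantile normalization, 0.0777), −4.789 (voom) and −4.405 (voom, batch 2). Leaving out each replicate gave −4.903 to −4.19, and the call was lost without male 12 (adjusted p = 0.0703), 13 (0.138) or 14 (0.125). Without the shift in the blanks it was −5.937. Where 1 gene was called it was another gene in 5 settings: Pf4 with blanks left missing and with RPKM + 1, Gm16485 with quantile normalization and without male 14, and AC150744.1 without male 12. Of 778 gene and setting pairs over 27 genes, 760 kept direction and side of the threshold, 10 lost a call and 8 turned sign, all of these when a replicate was left out of a gene near 0: Esr1 (−0.1107 to 0.3524), Pgr (−0.8056 to 0.3566), Oprm1 (−0.1378 to 0.06549) and Trpv1 (−0.2974 to 0.01438). The causes were not tested.

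Depth limits Srd5a2, with 4 to 31 reads in males. Counts of 0 interactions called and 0 marker lists past the threshold were the same in batch 2 alone. Batch 1 holds no male and gives no within-batch value.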

Other observations

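None of the 3 genes given here, which stand in no list, was called. Cldn11, a claudin of myelin and of arachnoid barrier cells, had 12, 17, 48, 38 and 42 reads in males, 122, 206, 63, 437 and 52 in batch 2 females and 109 and 77 in batch 1 females. Every female exceeded every male, and the log2 difference was 2.20 ± 0.62 (limma adjusted p = 0.365). Ecm2, a matrix protein gene, had 8.83 to 16.0 reads per M in males and 14.1 to 37.8 in females, with female replicate 21 alone within the male range, and a difference of 1.20 ± 0.27 (adjusted p = 0.176). S100a1, a calcium-binding protein gene of large neurons, had 28, 126, 278, 143 and 442 reads in males and 20, 6, 20, 36 and 25 in batch 2 females, with female replicate 22 above male replicate 11. It differed by −3.00 ± 0.73 (adjusted p = 0.288), while the batch 1 females, at 61 and 187 reads, lay within the male range. These genes were chosen after their values were seen.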
